A study of Mus musculus with 6 samples.

Results

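S100g and 8 of its relatives were followed in whole prostate tumours, as 9 of the 21718 genes in the deposited table. S100g was included because it stood among the genes with the largest separation between the marrow groups, so its group difference is given as a description and not as a test. The other 8 (S100a1, S100a4, S100a6, S100a11, S100a13, S100a14, S100a16 and S100b) were taken by family name. The neutrophil pair S100a8 and S100a9 was left aside, as were S100a10 and the remaining S100 genes of the table. All 9 were found by symbol and all 9 passed the filter on low counts. Every host was a mouse of 1 engineered, tumour-bearing genotype that was irradiated with 900 rad at 6 weeks of age, given marrow, castrated at 8 weeks and sampled 16 weeks after castration. The marrow was F10fl/fl without Cre (the F10-intact group, samples 1, 3 and 4) or F10fl/fl; LysM-Cre+ (the F10-deleted group, samples 1, 3 and 4). Both groups therefore share the host genotype, the castration, the irradiation and the floxed F10 alleles in the marrow, and differ by a Cre driven from the myeloid lysozyme locus. The tumour cells and the stroma that survives irradiation belong to the host, so only marrow-derived cells carry the F10 difference. F10 encodes coagulation factor X.

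S100 proteins are small calcium-binding proteins with EF-hand domains. Most of them form dimers that bind target proteins when calcium rises, and several are also released from cells and bind the receptor RAGE, encoded by Ager. S100g is the exception of the family: it is a monomeric calbindin that buffers and carries calcium in the cytosol of absorptive epithelium, and its transcription is known to respond to vitamin D in the gut and to oestrogen in the uterus. Most S100a genes sit in 1 cluster within the epidermal differentiation region, where they are expressed in epithelial, stromal and myeloid cells.

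The 6 samples held 9237308 to 11821588 counts each. On the first principal component, with 49.1% of the variance, F10-intact sample 4 lay far from the other 5 samples, so values are also given without that sample where it matters. The epithelial genes of the labelled tissue were abundant, with Krt8 and Epcam at a mean of 1137 and 1187 CPM (read counts scaled to a common library size with TMM factors) in the F10-intact group. Of the secreted prostate products, Tgm4 was close to 0 in both groups, at 1.39 and 0.683 CPM, whereas Pbsn was at 48.6 and 12.9 CPM (F10-intact and F10-deleted means). In bulk tissue, fewer cells of a type and less RNA per cell cannot be told apart.

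On GRCm38, S100g (ENSMUSG00000040808) lies on chromosome X from 162961992 to 162964599 on the minus strand. It stands inside the span of Ctps2 on the opposite strand, and the exons of the 2 genes share 0 bases. On chromosome 3, S100a1 (90511034 to 90514392, minus strand) and S100a13 (90514435 to 90524581, plus strand) point away from each other with starts 43 bases apart, followed on the plus strand by S100a14 (90526856 to 90528837), S100a16 (90537254 to 90543151), S100a4 (90603771 to 90606045) and S100a6 (90612882 to 90624181). S100a11 (chromosome 3, 93520488 to 93526287, plus strand) lies 2.90 Mb beyond S100a6, and S100b is on chromosome 10 (76253853 to 76261159, plus strand). In S100a4, 302 of 584 exon bases, or 51.7%, are shared on the same strand with Gm42674, a gene model that was not analysed here. The S100a4 level is therefore uncertain, since reads in shared bases may be left out of both genes.

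The start regions of 3 members are shown, because S100g and S100a6 had no overlap between the marrow groups, whereas S100a11 overlapped and is the most abundant member. They run 5′ to 3′ on the gene's own strand, from 250 bases before the RefSeq start to 10 bases after it, on GRCm38.p6. Capitals mark matches on either strand to TATAAA (the TATA box), GGGCGG (the GC box) and TGANTCA (the AP-1 site).
S100g, chrX:162964590-162964849, minus strand: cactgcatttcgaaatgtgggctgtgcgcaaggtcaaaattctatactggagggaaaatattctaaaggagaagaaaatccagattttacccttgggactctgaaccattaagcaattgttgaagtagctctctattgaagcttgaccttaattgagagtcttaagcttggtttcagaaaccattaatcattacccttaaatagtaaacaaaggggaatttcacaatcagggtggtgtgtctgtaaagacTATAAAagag
S100a6, chr3:90612644-90612903, plus strand: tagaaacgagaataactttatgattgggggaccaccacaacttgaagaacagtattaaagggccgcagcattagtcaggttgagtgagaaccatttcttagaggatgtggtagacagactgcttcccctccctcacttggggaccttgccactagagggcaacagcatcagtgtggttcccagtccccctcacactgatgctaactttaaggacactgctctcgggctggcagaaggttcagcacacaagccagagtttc
S100a11, chr3:93520246-93520505, plus strand: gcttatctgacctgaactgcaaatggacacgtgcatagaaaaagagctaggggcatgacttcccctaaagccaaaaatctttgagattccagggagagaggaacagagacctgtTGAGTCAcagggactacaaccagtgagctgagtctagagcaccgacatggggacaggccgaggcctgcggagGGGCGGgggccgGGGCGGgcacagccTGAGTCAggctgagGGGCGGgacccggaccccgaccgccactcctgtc
In S100g, TATAAA began at the annotated first base of the transcript. S100a11 held 3 GC boxes and 2 AP-1 sites, and the S100a6 window held none of the 3 motifs. Over all 32851 RefSeq windows of 300 bases, 13.6% held TATAAA, 35.7% held GGGCGG and 7.81% held TGANTCA. Among the 9 windows found for 8 members, each of these motifs occurred in 2. The full palindromic oestrogen response element occurred in 0 of the 9 and in 0.0700% of all windows. The window of S100g had a GC content of 41.0%, where the median of all windows was 52.7%. These matches describe letters in short windows and are not evidence of binding.

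S100g, the calbindin, was low in all samples with F10-intact marrow and higher in all samples with F10-deleted marrow. It had 14, 18 and 16 counts in F10-intact samples 1, 3 and 4, which is 1.29, 1.54 and 1.66 CPM. It had 67, 83 and 108 counts in F10-deleted samples 1, 3 and 4, which is 7.04, 7.02 and 9.21 CPM. The groups did not overlap, and the spread within each group was small against the distance between them. From these counts, the exact Poisson 95% interval of single samples reached up to 2.69 CPM in the F10-intact group and down to 5.45 CPM in the F10-deleted group, which covers counting error only and is no test of the groups. The means were 1.50 ± 0.188 and 7.76 ± 1.26 CPM (SD, n = 3 each). The log2 fold change was 2.37 ± 0.30 (SE, 95% interval 1.68 to 3.05), or 5.15-fold, and 99.0% of tested genes had a smaller value. Since S100g was picked for its separation in this contrast, neither the rank nor the interval is a test of it. Between samples with the same number the log2 difference was 2.29 for number 1, 2.06 for number 3 and 2.35 for number 4.

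**Figure D1:**
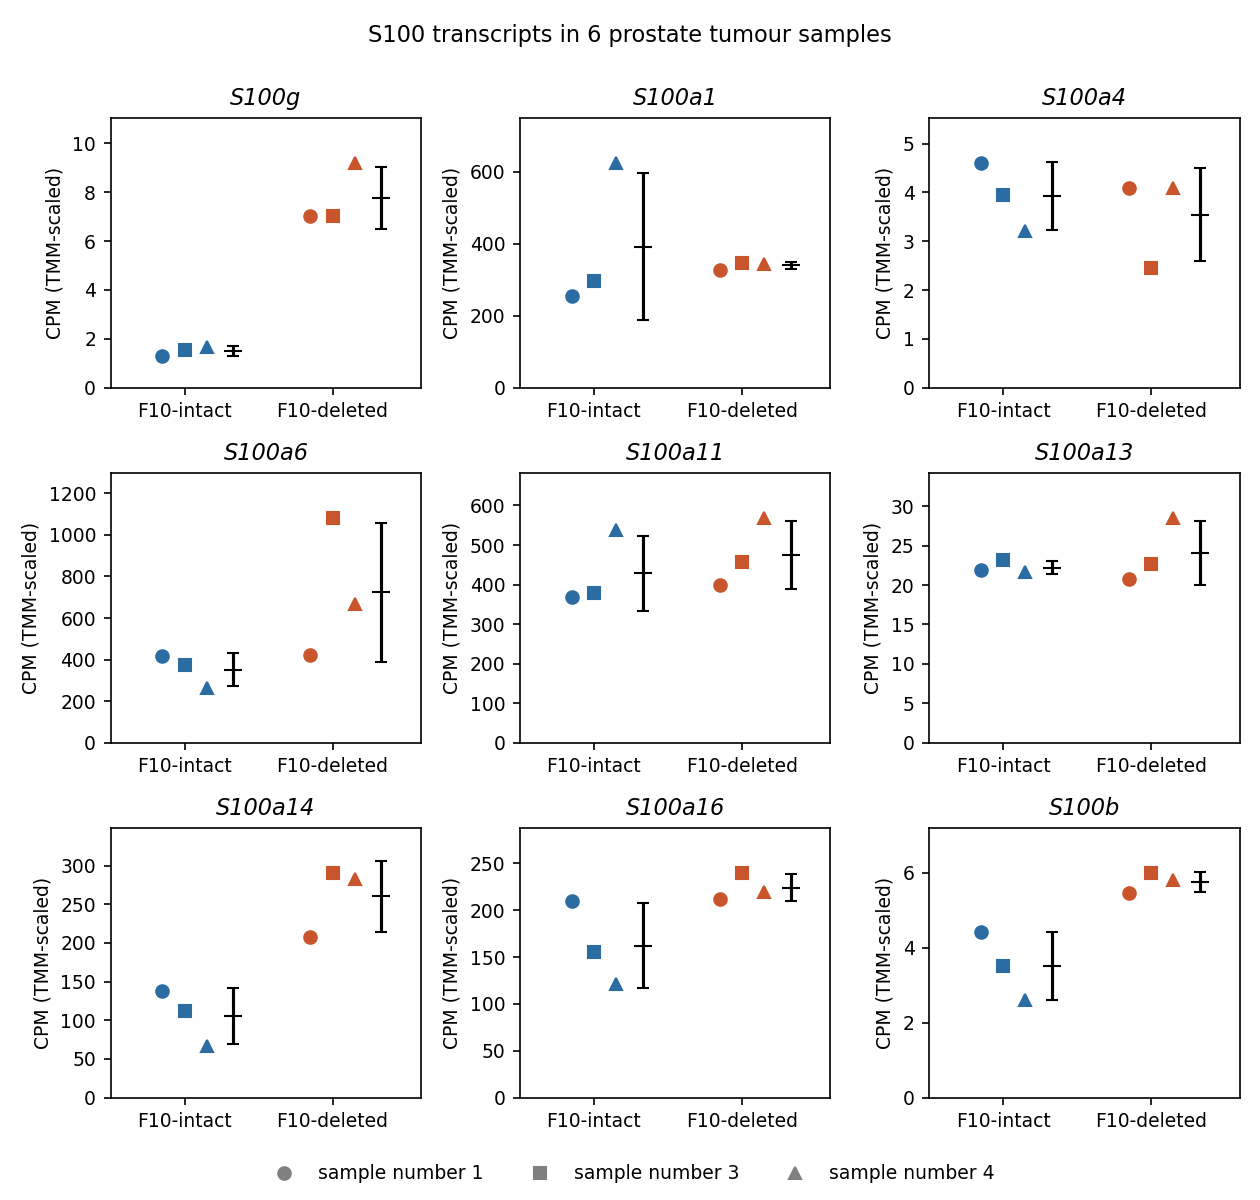
Level of each S100 gene in CPM (vertical axes, each from 0) in the 3 F10-intact and 3 F10-deleted samples, with the mean and SD of each group as a bar beside the points. S100g, S100a14, S100b, S100a6 and S100a16 do not overlap between the groups, with the narrowest gaps for S100a6 and S100a16, and S100a1 stands out in F10-intact sample 4 alone.

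The genes around S100g on chromosome X overlapped between the groups. The 4 tested genes within 300 kb were Rbbp7, a histone-binding protein, Txlng, a taxilin, Syap1, a synapse-associated protein, and Ctps2, a CTP synthase. Ctps2, whose span holds S100g, stood at 59.0 ± 4.10 CPM with F10-intact marrow and at 53.9 ± 2.44 CPM with F10-deleted marrow (SD, n = 3 each). Its log2 fold change was -0.13 (95% interval -0.42 to 0.16, edgeR adjusted p = 0.769). The other 3 had log2 fold changes of -0.020 for Rbbp7, 0.13 for Txlng and -0.071 for Syap1, with edgeR adjusted p from 0.843 to 0.975.

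The genes whose profile over the 6 samples was closest to that of S100g were found by the root mean square difference of centred log2 CPM, among 12195 genes with a mean of at least 5 CPM. The closest was Aqp4, a water channel, at a difference of 0.174, followed by Pkd2l1, a cation channel of the polycystin family, at 0.354. Next came Has3, a hyaluronan synthase, at 0.405, and Misp, a spindle-positioning actin-bundling protein, was the fifth at 0.414. The median difference over all these genes was 1.16. Aqp4 stood at 6.37, 9.0 and 10.7 CPM in F10-intact samples 1, 3 and 4 and at 40.2, 42.1 and 41.4 CPM in F10-deleted samples 1, 3 and 4. Among the S100 relatives S100a14 was the closest to S100g, at 0.616. These genes were picked for likeness to S100g, so their own group differences are no support for it.

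Among the S100a genes of the chromosome 3 cluster, S100a14 showed the widest separation. S100a14 is an S100 protein of epithelial cells. It had 138, 112 and 66.3 CPM in F10-intact samples 1, 3 and 4 and 208, 291 and 283 CPM in F10-deleted samples 1, 3 and 4. All F10-deleted samples were above all F10-intact samples, and F10-intact sample 4 was the lowest. The means were 105 ± 36.4 and 261 ± 45.9 CPM (SD, n = 3 each), and the log2 difference of the fit was 1.30 ± 0.28 (SE, 95% interval 0.66 to 1.95). The adjusted p of 0.144 from edgeR did not pass 0.05, whereas DESeq2 gave an adjusted p of 0.000581. Over the other edgeR and limma settings with all samples it was at most 0.205, and with 1 sample left out it ranged from 0.0707 to 0.437.

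S100a6, or calcyclin, is found in proliferating epithelium and fibroblasts. It had 416, 374 and 264 CPM in F10-intact samples 1, 3 and 4 and 421, 1084 and 666 CPM in F10-deleted samples 1, 3 and 4. The groups did not overlap, but F10-deleted sample 1 lay just above F10-intact sample 1, and F10-deleted sample 3 was by far the highest. The means were 351 ± 78.4 and 724 ± 335 CPM (SD, n = 3 each). On the log2 scale the fold change was 1.04 ± 0.35 (SE, 95% interval 0.23 to 1.86, edgeR adjusted p = 0.331). Leaving out F10-deleted sample 3 gave 0.66. Between samples of the same number it was 0.019 for number 1, 1.54 for number 3 and 1.34 for number 4.

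S100a16, which is expressed widely in epithelium, had 210, 156 and 121 CPM in F10-intact samples 1, 3 and 4 and 212, 240 and 220 CPM in F10-deleted samples 1, 3 and 4. F10-intact sample 1 reached nearly the F10-deleted level and F10-intact sample 4 was the lowest. The log2 fold change was 0.46 ± 0.20 (SE, 95% interval -0.0048 to 0.93, edgeR adjusted p = 0.459). Leaving out F10-intact sample 4 gave 0.29 and leaving out F10-intact sample 1 gave 0.72.

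S100b, a marker of glia and Schwann cells that adipocytes also express, was low in every sample. It had 48, 41 and 25 counts in F10-intact samples 1, 3 and 4 and 52, 71 and 68 counts in F10-deleted samples 1, 3 and 4. On the CPM scale these were 4.43, 3.51 and 2.59 against 5.46, 6.01 and 5.80, so the groups did not overlap. The nearest samples lay within counting error of each other, with exact Poisson 95% intervals of 3.27 to 5.87 CPM for F10-intact sample 1 and 4.08 to 7.16 CPM for F10-deleted sample 1. The log2 fold change was 0.71 ± 0.30 (SE, 95% interval 0.023 to 1.39, edgeR adjusted p = 0.44). Its profile over the samples was closest to that of S100a16, at a root mean square difference of 0.114, the smallest of the 36 pairs of members.

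The other 4 members overlapped between the groups. S100a11, which binds annexins in epithelium, had 369, 378 and 537 CPM in F10-intact samples 1, 3 and 4 and 399, 457 and 570 CPM in F10-deleted samples 1, 3 and 4. In both groups sample 4 was the highest. The log2 fold change was 0.15 (95% interval -0.33 to 0.63, edgeR adjusted p = 0.857). Between samples of the same number it was higher with F10-deleted marrow in 3 of 3, by 0.11, 0.27 and 0.084, and with the replicate number as a block it was 0.16 ± 0.10 (SE, edgeR adjusted p = 0.525). S100a13, which takes part in the export of growth factors that lack a signal peptide, ranged from 20.8 to 28.6 CPM over all 6 samples. Its log2 fold change was 0.11 (95% interval -0.28 to 0.50, edgeR adjusted p = 0.872).

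S100a1 is best known from heart and skeletal muscle, where it acts on calcium handling. It had 254, 297 and 626 CPM in F10-intact samples 1, 3 and 4 and 328, 348 and 344 CPM in F10-deleted samples 1, 3 and 4. F10-intact sample 4 was far above the other 5 samples, which lay close together. The log2 fold change was -0.21 (95% interval -0.97 to 0.56, edgeR adjusted p = 0.882), and 0.30 once F10-intact sample 4 was left out. S100a13, whose start lies next to that of S100a1, was at 21.7 CPM in F10-intact sample 4, so the ratio of S100a1 to S100a13 counts was 28.9 there and 11.6 to 15.8 in the other 5 samples. S100a4, known from fibroblasts, macrophages and metastatic cells, had only 29 to 50 counts per sample, or 2.45 to 4.61 CPM. Its log2 fold change was -0.15 (95% interval -0.92 to 0.62, edgeR adjusted p = 0.919), on counts that the overlap with Gm42674 makes uncertain.

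**Figure D2:**
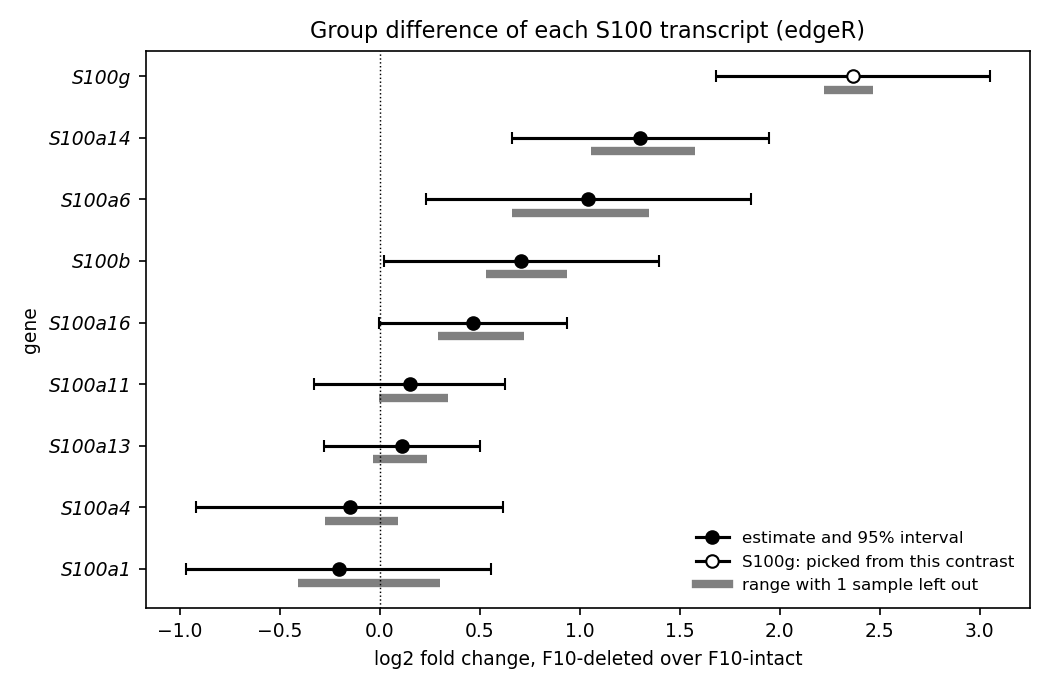
Log2 fold change of F10-deleted over F10-intact (horizontal axis) for each S100 gene, with the 95% interval of the edgeR fit as a black bar and the range with 1 sample left out as a grey bar. S100g, drawn open because it was picked from this contrast, lies at 2.37, and the intervals of S100a16, S100a11, S100a13, S100a4 and S100a1 cross 0.

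Over the 9 members, edgeR called 0 at an adjusted p under 0.05, where it called 7 of 15963 genes, or 0.0439%. S100g was picked for its separation in this contrast, so the other counts are given over the remaining 8. At an adjusted p under 0.1 edgeR called 0 of these 8 and 0.532% of genes. At an unadjusted p under 0.05 there were 3 (S100a6, S100a14 and S100b), all higher with F10-deleted marrow, where 10.9% of all genes were at that level, 6.15% higher and 4.74% lower. DESeq2 called 1 of the 8, S100a14, where it called 3.18% of genes, and limma-voom called 0 of the 8 and 0.0125% of genes. There were 4 of the 8 with no overlap between the groups (S100a6, S100a14, S100a16 and S100b), all higher with F10-deleted marrow, where 8.99% of all genes had no overlap in that direction, 7.67% in the other and 16.7% in both together. With upper quartile scaling S100a6 and S100a16 overlapped and 2 were without overlap, against 9.43% of genes. Without F10-intact sample 4 there were 6, with S100a1 and S100a11 added, against 12.6% of genes. The log2 fold change was above 0 for 6 of the 8 and for 47.3% of all genes, and the medians were 0.31 and -0.020.

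The transcripts differed widely in abundance. Per kilobase of exon, S100a11 was the highest member, at 884 ± 166 CPM per kilobase (SD over all 6 samples), and it exceeded S100a1, at 528 ± 190, in 6 of 6 samples. S100a1 exceeded S100a6, at 393 ± 218, in 5 of 6 samples, so those neighbours did not differ beyond their spread. S100a16, at 119 ± 27.9, and S100a14, at 106 ± 53.7, swapped order between samples, with S100a16 higher in 4 of 6. By group, the means of S100a16 and S100a14 were 100.4 and 61.1 with F10-intact marrow and 139 and 151 with F10-deleted marrow, and those of S100a1 and S100a6 were 565 and 257 and then 490 and 529 CPM per kilobase. S100a13 followed at 32.3 ± 3.91, below S100a14 in 6 of 6 samples. At the low end, S100g stood at 9.64 ± 7.34, S100a4 at 6.40 ± 1.32 and S100b at 3.12 ± 0.923 CPM per kilobase. S100g was below S100a4 in all 3 F10-intact samples and above it in all 3 F10-deleted samples. Even at its higher level, with a mean of 16.2 ± 2.62 CPM per kilobase in the F10-deleted group (SD, n = 3), S100g stayed below S100a13. With the length of the longest transcript in place of all exons, S100a6 came before S100a1, at 686 against 541 CPM per kilobase.

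**Figure D3:**
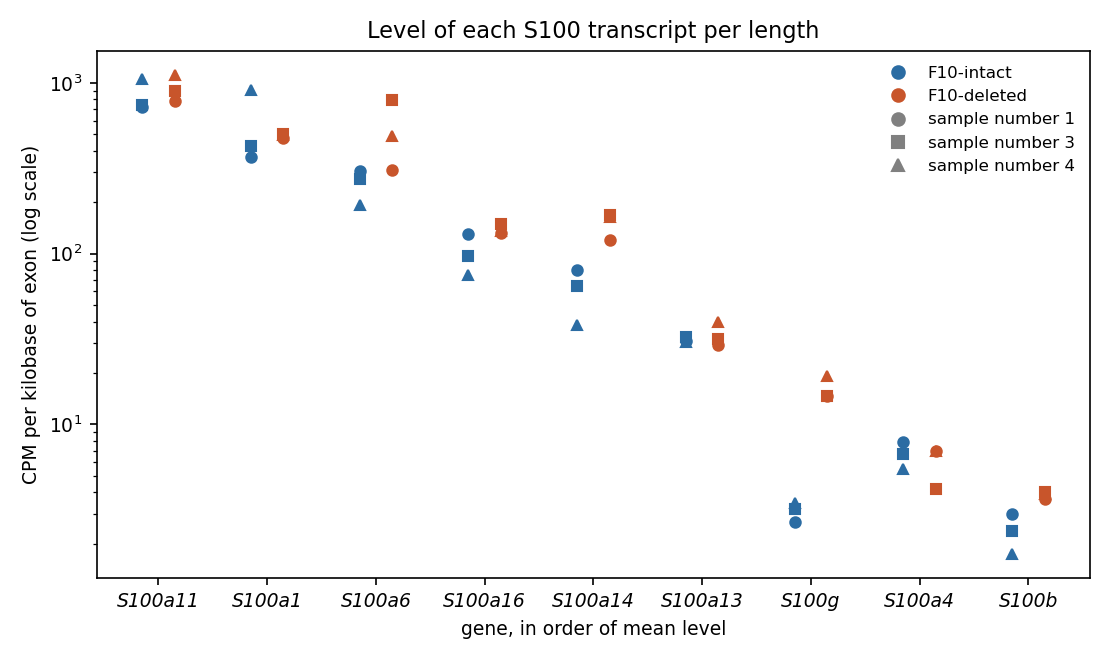
Level per kilobase of exon (vertical axis, log scale) of each S100 gene in all 6 samples, with the genes in order of their mean. S100a11, S100a1 and S100a6 are the most abundant, and S100g moves from below S100a4 in the F10-intact samples to above it in the F10-deleted samples.

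The 9 members summed to 1420, 1349 and 1643 CPM in F10-intact samples 1, 3 and 4 and to 1605, 2458 and 2131 CPM in F10-deleted samples 1, 3 and 4. The groups overlapped. The make-up of this sum differed between samples. S100a1 took 38.1% of it in F10-intact sample 4 and 14.2% to 22% in the other 5, whereas S100a6 took 16.1% there and 44.1% in F10-deleted sample 3. The ratio of S100a6 to S100a1 counts was 0.421 and 3.11 in those 2 samples.

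Markers of the cell types that the tumours could hold are given beside the S100 genes. All 5 basal epithelium markers were above 0 in log2 fold change, with a median of 0.86, and their summed level was 799 to 1943 CPM in the F10-intact and 2182 to 3640 CPM in the F10-deleted samples. F10-intact sample 4, which was lowest for S100a14, S100a6, S100a16 and S100b, was also the lowest for the basal list. Its sums for the urothelium, skeletal muscle, adipocyte, Schwann cell and endothelium lists were the lowest too, so the match is not particular to the basal list. All 6 urothelium markers were above 0 as well, with summed levels of 150 to 426 CPM and 329 to 1585 CPM. The highest of these was F10-deleted sample 3, the sample with the highest S100a6, and the other F10-deleted samples, at 329 and 357 CPM, lay within the F10-intact range. In the luminal epithelium list 1 of 8 genes was above 0, at a median of -0.42. There, 2 of 8 had no overlap and were lower (Pbsn among them), where 7.67% of all genes were so. In the basal and urothelium lists 3 of 5 and 2 of 6 had no overlap and were higher, where 8.99% of all genes were so. The urothelium count holds Krt20, which had 9, 9 and 7 counts in F10-intact samples 1, 3 and 4. With 10, 624 and 72 counts in F10-deleted samples 1, 3 and 4, Krt20 reached the minimum count of 10 only there, and its groups were barely apart. The luminal sums were 4877 to 6318 and 4825 to 5359 CPM, highest in F10-intact sample 4, the sample with the highest S100a1. No marker of these 3 lists passed edgeR, where 0.0439% of all genes did, and none was at 0 in any sample. The part of these cell types in the S100 values was not tested.

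**Figure D4:**
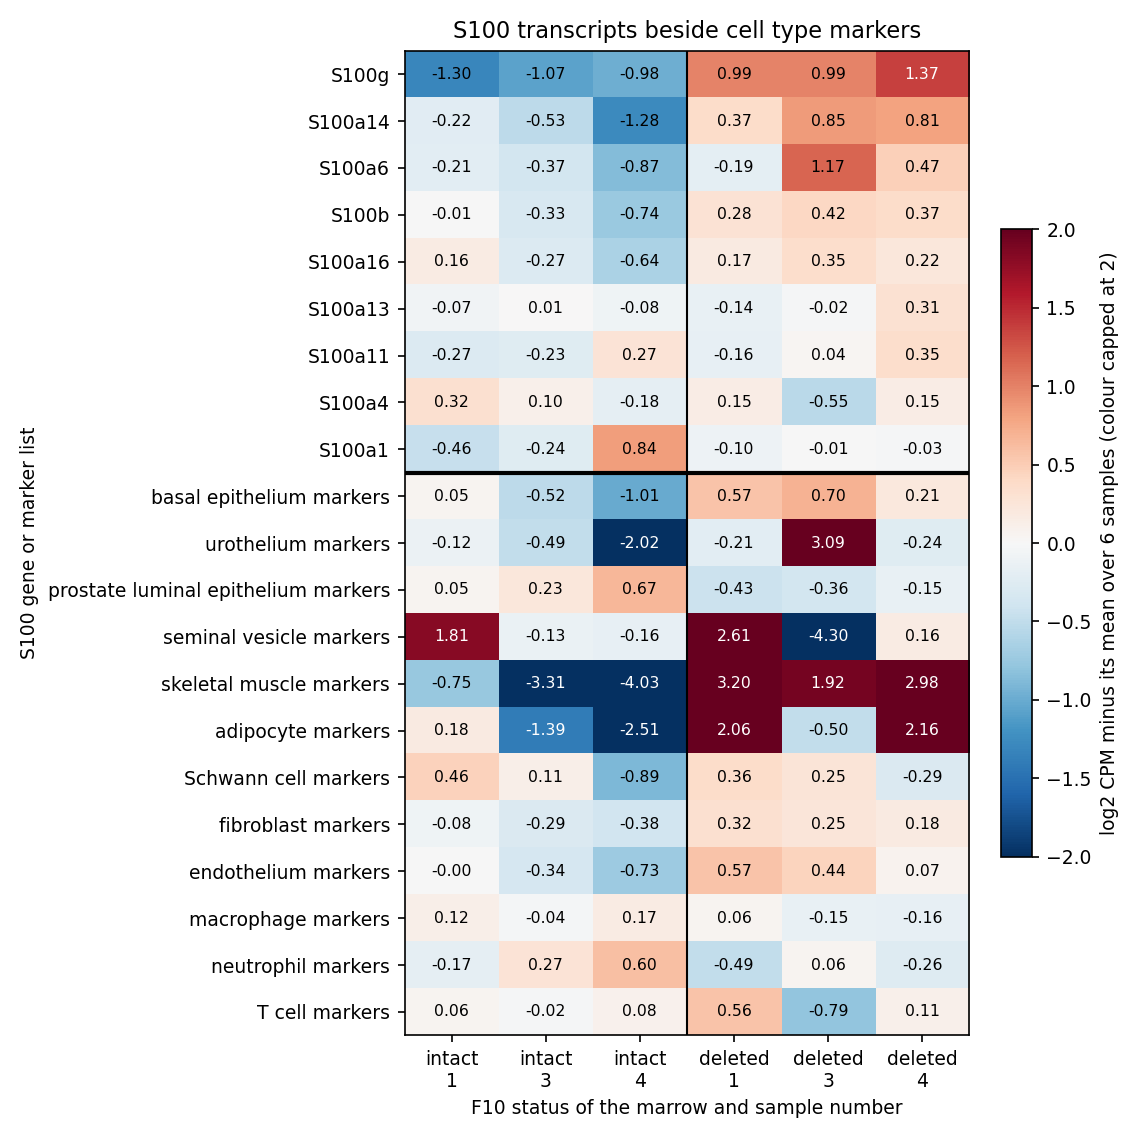
Log2 CPM minus its mean over the 6 samples for each S100 gene (upper 9 rows) and, averaged over the tested genes, for each marker list (lower 12 rows), with samples as columns. S100g is negative in all 3 F10-intact columns and positive in all 3 F10-deleted columns. S100a14 is lowest in F10-intact sample 4, as are the basal, urothelium, muscle, adipocyte, Schwann cell, fibroblast and endothelium lists. The muscle list separates the groups, while S100a1 overlaps between them unless F10-intact sample 4 is left out.

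All 9 skeletal muscle markers were above 0 with no overlap between the groups, where 8.99% of all genes were so, at a median of 5.05 and summed levels of 13 to 117 and 812 to 1984 CPM. S100a1, the member known from muscle, had its highest level in F10-intact sample 4, where the muscle sum was lowest. In the remaining samples it was at 254 and 297 CPM with F10-intact and at 328, 348 and 344 CPM with F10-deleted marrow. Between the groups that was the direction of the muscle list, whereas within each group the order of S100a1 was the reverse of that list. The muscle sums were 117, 20.7 and 13 CPM in F10-intact samples 1, 3 and 4. In F10-deleted samples 1, 3 and 4 they were 1984, 812 and 1812 CPM. The relation of S100a1 to the muscle markers was not tested. All 7 tested adipocyte markers were above 0, at a median of 2.64 and sums of 5.18 to 49.6 and 36.3 to 152 CPM, with Lep and Retn at 0 in some samples. The Schwann cell list had 5 of 7 above 0, a median of 0.053 and sums of 132 to 197 and 171 to 212 CPM, and 0 of its markers was at 0. S100b belongs to both of these cell types, and their part in its level was not tested. Fibroblast markers had 6 of 7 and endothelium markers 6 of 6 above 0, with sums of 1253 to 1469 and 1427 to 1505 CPM and of 28.7 to 49.2 and 50.2 to 68.7 CPM. In each of these lists 3 genes were higher with no overlap, where 8.99% of all genes were so. In the fibroblast list they were Col1a1, Col1a2 and Col3a1, at log2 fold changes of 1.21, 0.89 and 0.88. Dcn, at means of 1088 and 992 CPM, weighed most in the fibroblast sum and was below 0. Seminal vesicle markers had 3 of 4 tested genes above 0, a median of 0.69 and sums of 68.2 to 442.5 and 5.41 to 910 CPM, with Svs3a and Svs6 at 0 in some samples. The part of these cell types in the S100 values was not tested either. Of the markers in these 6 lists, 0 passed edgeR, where 0.0439% of all genes did. With so few genes called, a count of 0 does not show that a list is alike between the groups. Among the muscle markers the smallest edgeR adjusted p was 0.0846, for Actn3.

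S100g works in epithelial calcium transport beside an apical channel and a basolateral pump. Of 8 listed genes of this pathway 4 were tested, and 0 passed edgeR in either direction, where 0.0439% of all genes did. Trpv6, the apical calcium channel, had 16.6, 17.3 and 25.7 CPM in F10-intact samples 1, 3 and 4 and 13, 12.6 and 12.3 CPM in F10-deleted samples 1, 3 and 4. It was lower in all F10-deleted samples, by -0.65 ± 0.22 on the log2 scale (SE, edgeR adjusted p = 0.324). Of the 4 tested genes 1 was lower without overlap, where 7.67% of all genes were so. Atp2b1, the calcium pump of the basolateral membrane, had a log2 fold change of 0.060 (95% interval -0.32 to 0.44).

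Of the vitamin D and steroid receptor genes, 5 of 7 were tested and 0 passed edgeR, where 0.0439% of all genes did. Vdr, the vitamin D receptor, had 13, 13.4 and 9.43 CPM in F10-intact samples 1, 3 and 4 and 19.4, 22.3 and 21.4 CPM in F10-deleted samples 1, 3 and 4. Its groups did not overlap, and its fold change was 0.82 ± 0.20 on the log2 scale (SE, edgeR adjusted p = 0.191). Of the 5 tested genes 1 was higher and 1 was lower without overlap, where 8.99% and 7.67% of all genes were so. The relation of Vdr to S100g was not tested. Esr1, the oestrogen receptor, overlapped between the groups at 61.4 ± 28.5 and 80.7 ± 21.0 CPM (SD, n = 3 each). Cyp27b1, which makes the active hormone, had at most 0.311 CPM in any sample.

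Annexins are membrane-binding proteins and the main intracellular partners of S100a10, S100a11 and S100a6. Of 11 annexin genes 10 were tested and 0 passed edgeR, where 0.0439% of all genes did. Of the 10, 6 were above 0 on a median of 0.11 (log2 fold change). All F10-deleted samples were above all F10-intact samples for 4 of the 10 (Anxa1, Anxa2, Anxa3 and Anxa8), where 8.99% of all genes had no overlap in that direction. Anxa8 had 36.0 ± 15.7 and 106 ± 22.3 CPM (SD, n = 3 each), a difference of 1.56 ± 0.35 on the log2 scale (SE, edgeR adjusted p = 0.174). Anxa2 had 541 ± 126 and 852 ± 125 CPM (SD, n = 3 each) and Anxa1 988 ± 509 and 1864 ± 191 CPM, with edgeR adjusted p of 0.324 and 0.38. Among 10 receptors and binding partners, 0 passed edgeR, against the same 0.0439% of all genes, and 3 were above 0. Ager, the receptor RAGE, was low at 4.41 ± 1.86 and 3.48 ± 1.34 CPM, and Ahnak, a large partner of S100a10, was at 692 ± 231 and 960 ± 87.1 CPM (SD, n = 3 each).

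Of the S100 genes left out of the set, 7 were in the table and 6 of those were examined. Among the 6, 4 were tested and 0 of the 4 passed edgeR, where 0.0439% of all genes did, and 1 was above 0. S100a8 and S100a9, the neutrophil alarmins, were at 26.7, 46.5 and 62.9 and at 33.6, 55.0 and 83.2 CPM in F10-intact samples 1, 3 and 4. In F10-deleted samples 1, 3 and 4 they were at 21.7, 27.2 and 32.2 and at 31.0, 35.4 and 38.7 CPM. Their log2 fold changes were -0.75 (95% interval -1.47 to -0.022) and -0.71 (95% interval -1.42 to 0.0097), with edgeR adjusted p of 0.44 and 0.46, and the groups overlapped. The neutrophil list, which does not hold them, had 1 of 4 tested genes above 0 and sums of 65.1 to 104 and 51.0 to 77.4 CPM, with Ly6g at 0 in some samples. S100a10, the annexin A2 partner, was at 167 ± 14.1 and 186 ± 40.2 CPM (SD, n = 3 each), and the log2 difference was 0.16 (95% interval -0.24 to 0.56, edgeR adjusted p = 0.8). Macrophage and T cell lists had 1 of 8 and 3 of 6 genes above 0.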

How the data were processed

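Poly-A RNA from 6 whole prostate tumours was sequenced, per the labels' protocols, in stranded single-end runs (120 bases). Raw read counts per Ensembl gene are what the authors deposited. STAR 2.7.10a and GRCm38 are named in the submitters' processing notes, with DESeq2 at no stated version or role. For the counting program, the strand setting and the annotation the release is not given in the sources used here. GENCODE M21 gave symbols, coordinates and exon lengths for 21605 of 21718 identifiers, and RefSeq gave the start regions.

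The main test was the edgeR 4.0.16 quasi-likelihood test in R 4.3.3 (TMM factors, robust, filterByExpr with a minimum count of 10, 15963 genes), with Benjamini-Hochberg adjustment over all genes. CPM values use the TMM factors. SEs were derived from the fold change and its F statistic. Centred log2 CPM used a prior count of 2. The members, lists and alternatives were chosen with earlier results of these data known. Named were all members, genes among the 5 closest to S100g, tested genes within 300 kb of it, and up to 3 genes per list by smallest p, or any gene of a list of 8 or fewer. Some genes under this rule are not reported here. Anxa1 and Ager fall outside that rule and were chosen after their values were seen.

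Alternatives were RLE or upper quartile scaling, TMM factors from all but the 50 top genes, the Wald test of DESeq2 1.42.0, voom in limma 3.58.1, no filter, at least 1 CPM in at least 3 samples, an adjusted p under 0.1, a block on the replicate number, and leaving out each sample. Deviations from the group means correlated across genes between same-numbered samples at 0.35, 0.135 and 0.181 for numbers 1, 3 and 4. Samples of different numbers were not compared in this way, so these values do not show that the numbers pair the samples. What a shared number marks is not stated in the labels. The main fit therefore left the number out, and the block on it is an alternative. The labels do not say that samples came from separate animals, and the p-values then cover only the spread between samples, which may be technical. The fit was tested on simulated counts.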

Additional observations from a re-analysis of the deposited data

How the results depend on the processing

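Of 126 fold changes recomputed for the 9 members, 120 kept their direction and their side of the threshold (for S100g, a change of less than 1 SD). With 1 sample left out the log2 fold changes ranged from 2.22 to 2.47 for S100g, 1.06 to 1.58 for S100a14, 0.66 to 1.35 for S100a6, 0.53 to 0.94 for S100b and 0.29 to 0.72 for S100a16. The direction reversed for S100a1 (range -0.41 to 0.30, above 0 without F10-intact sample 4), S100a4 (-0.27 to 0.090, above 0 at 0.013 when F10-intact sample 1 was left out and at 0.090 when F10-deleted sample 3 was), S100a11 (-0.0026 to 0.34, below 0 without F10-deleted sample 4) and S100a13 (-0.033 to 0.24, below 0 without F10-deleted sample 4). The cause was not tested. DESeq2 put S100a14 past the threshold at a log2 fold change of 1.31 and called 2 members, and at an adjusted p under 0.1 edgeR called 1. Both counts hold S100g, which was picked from this contrast. The number of members called was 0 in each fit that left out 1 sample, and over all genes the count was 0 to 72 in those fits, 487 with DESeq2, 85 at an adjusted p under 0.1, and 2 with the block, with limma-voom, with the stricter filter and with scaling that left out the abundant genes. Members without overlap, S100g included, numbered 3 with upper quartile scaling and 5 to 7 with 1 sample left out, where 12.6% to 17.4% of all genes were higher without overlap. With the replicate number as a block, S100g was at 2.36, S100a14 at 1.35 (edgeR adjusted p = 0.205) and S100a6 at 0.97 (edgeR adjusted p = 0.308), 0 members were called, and no member's call changed. With the longest transcript as length, 7 of 9 members kept their place in the order, and the 5 genes closest to S100g were the same with a prior count of 0.5 and with RLE factors. Counts of 14 to 18 for S100g in the F10-intact group limit the precision of its fold.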
